A study of Homo sapiens with 6 samples.

Results

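The S100 proteins are small calcium-binding proteins of the EF-hand type, and 10 of their genes, all other than the calprotectin subunits, were examined in MDA-MB-231 cells after inhibition of DNA methylation. These cells are a long-established human line from a breast adenocarcinoma, mesenchymal in type and without hormone receptors. RNA was sequenced from 3 vehicle libraries and from 3 libraries of cells given SGI-110 (guadecitabine, a DNA methyltransferase inhibitor that releases decitabine) at 1 µM for 96 h, followed by 24 h without drug. The study's methods describe the libraries as independent experiments, and the p-values measure the spread between these 3 samples of a group in 1 cell line. The members were chosen by gene symbol (S100A2, S100A3, S100A4, S100A6, S100A10, S100A11, S100A13, S100A14, S100A16 and S100P), and 10 of 10 were found among the 17100 transcripts of the deposited count table. The 10 genes also passed the filter on low counts, so that each of them was tested. S100A14 and S100P had vehicle libraries under the filter's minimum count of 10. They passed through their SGI-110 libraries, where they were higher. Each of the 10 genes had more than 3 counts in every library, the floor of detection used here, except S100A14. That gene was at 3 counts and 1 count in vehicle replicates 1 and 2.

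Most S100 proteins act as dimers that expose a binding surface once calcium is bound, and each has its own set of partners, such as annexins and myosin. S100A10 is an exception, since it no longer binds calcium and is held in its active form. Some family members are also released from cells and bind the receptor RAGE, encoded by AGER. S100A4 is known for promoting the spread of breast carcinoma cells, and S100A2 has been described as lost in breast carcinoma.

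Of the 10 genes, 9 lie on the long arm of chromosome 1, where most of the family is clustered, and S100P lies on chromosome 4. Coordinates are those of the deposited table on hg19, written from base 1. S100A10 (NM_002966) lies at 151955386 to 151966714 and S100A11 (NM_005620) at 152004982 to 152009511, both on the minus strand. The tight cluster spans 99493 bp and starts with S100A6 (NM_014624) at 153507076 to 153508717. It goes on with S100A4 (NM_019554) at 153516095 to 153518282 and S100A3 (NM_002960) at 153519809 to 153521734. S100A2 (NM_005978) follows at 153533585 to 153538306 and S100A16 (NM_080388) at 153579367 to 153585514. S100A14 (NM_020672) lies at 153586732 to 153588808 and S100A13 (NM_001024210) at 153591276 to 153606568. These cluster genes are all read from the minus strand, and the gap between S100A4 and S100A3 is 1526 bp. S100P (NM_005980) lies on the plus strand of chromosome 4 at 6695566 to 6698897. In the GENCODE annotation the canonical transcript of S100P has 2 exons, that of S100A14 has 4 and that of each other member has 3. For the members, GENCODE exons and GENCODE exon length below refer to this canonical transcript only.

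The promoters of S100A3, S100A4 and S100P are shown, as those of the adjacent pair that moved in opposite directions and of the gene with the largest rise. Each is the stretch of 250 bases that ends just before the deposited transcript start, on the GRCh37 assembly (hg19), written 5′ to 3′ on the strand of the gene, with CpG sites, the sites of DNA methylation, in capitals. They lie at chr1:153521735-153521984 on the minus strand for S100A3, at chr1:153518283-153518532 on the minus strand for S100A4 and at chr4:6695316-6695565 on the plus strand for S100P.
S100A3: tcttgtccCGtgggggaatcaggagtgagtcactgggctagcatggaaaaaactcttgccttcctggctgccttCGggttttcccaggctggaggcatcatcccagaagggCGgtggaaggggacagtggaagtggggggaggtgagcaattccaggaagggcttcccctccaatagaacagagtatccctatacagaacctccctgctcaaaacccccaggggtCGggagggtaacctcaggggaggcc
S100A4: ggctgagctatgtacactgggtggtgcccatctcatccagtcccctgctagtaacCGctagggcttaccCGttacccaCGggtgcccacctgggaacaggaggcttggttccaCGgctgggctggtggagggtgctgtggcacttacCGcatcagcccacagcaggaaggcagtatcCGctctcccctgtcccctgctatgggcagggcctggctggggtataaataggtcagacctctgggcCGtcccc
S100P: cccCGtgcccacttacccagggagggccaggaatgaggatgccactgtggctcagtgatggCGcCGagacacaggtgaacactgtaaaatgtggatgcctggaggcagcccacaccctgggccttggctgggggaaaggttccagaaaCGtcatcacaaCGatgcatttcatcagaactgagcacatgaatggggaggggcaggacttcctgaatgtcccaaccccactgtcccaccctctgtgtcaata
These stretches overlap no exon annotated by GENCODE, although the GENCODE gene S100A4 reaches 4330 bases upstream of the deposited start, past S100A3, so that for its longer transcripts the S100A4 and S100A3 stretches are intronic. The stretch holds 4 CpG sites in S100A3, 7 in S100A4 and 5 in S100P. The core promoter letters TATAAA begin 31 bases before the start of S100A4. In S100P the same letters begin 12 bases after the deposited start, which is 28 bases before the start that GENCODE gives for the gene, 39 bases further downstream. They occur on either strand in 8.38% of all promoters in windows of 300 bases (250 before and 50 after the start). The palindromic AP-1 letters TGANTCA, held by 5.26% of promoters, begin 225 bases before the start of S100A3 and 66 bases before that of S100A2. The GENCODE gene S100A2 starts 2060 bases further upstream, which puts these letters at base 1995 of that gene. The letters GGGCGG, an Sp1 motif, occurred in S100A3, S100A10, S100A11 and S100A13, and in 61% of all promoters. In GENCODE the gene S100A11 starts 10872 bases upstream of its deposited start, and S100A10 and S100A13 379 and 2732 bases downstream of theirs. The windows for motifs and CpG sites follow the deposited starts. Both strands were searched for each motif, and a match of letters is no evidence of binding.

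In the same window the 10 genes held between 5 CpG sites (S100A3 and S100A14) and 26 (S100A13). Of the 10 promoters, 5 had 6 or fewer CpG sites, which is 50% against 10.9% of the promoters of all genes tested. That limit is itself the value of S100A2, S100A16 and S100P, so the share depends on where it was set. The median was 7 against 24. S100A6 had 16, S100A10 had 19 and S100A11 had 15, while S100A2, S100A16 and S100P had 6 each and S100A4 had 8. Over all genes, promoters of genes higher after SGI-110 and of genes lower after it had the same median of 24 CpG sites. Methylation was not analysed here.

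Total counts ranged from 17602570 to 22277442 in the vehicle libraries and from 8792127 to 21410849 in the SGI-110 libraries, of which replicate 2 was the smallest. Vehicle replicate 3 stood apart, with 20 transcripts at 0 counts against 2498 and 2517 in the other vehicle libraries. It held counts of genes that were otherwise silent. S100A14, S100P and the low genes S100A1, S100Z, AGER, FGF1 and SYT1 are therefore also given without it. S100A11, an abundant gene, is given without it as well, because its call changed. The identity markers VIM, AXL and CD44 together had 45108 to 46162 normalized reads per kb in vehicle and 53308 to 62188 after SGI-110, mostly from VIM. They did not move together: VIM and CD44 rose (log2 fold changes 0.33 and 1.18, adjusted p = 0.0258 and 2.66e-05, edgeR), while AXL fell from a mean of 5059 to 2107 reads per kb (-1.27, adjusted p = 4.44e-05, edgeR). ESR1 and PGR had at most 1 count in each library other than vehicle replicate 3, which had 67 and 43. The markers expected to be low were ESR1, PGR, EPCAM and CDH1. Together they had 189 to 233 reads per kb in vehicle and 109 to 139.6 after SGI-110, mostly from EPCAM. EPCAM fell from a mean of 193 to 119.9 reads per kb (log2 fold change -0.68, adjusted p = 0.00446, edgeR). CDH1 fell from 8.96 to 2.87 (-1.62, adjusted p = 0.0313, edgeR). Its vehicle libraries had 7.51, 5.48 and 13.9 reads per kb, with replicate 3 the highest, and its fit without that library is not given. ESR1 and PGR were not tested. The leukocyte list (4 of 5 genes in the table) had 91.6 to 145 and 113 to 125 reads per kb, and the endothelial list (2 of 2) had 11.8 to 20.6 and 18.8 to 24.3. The fibroblast list (4 of 4) had 151 to 214 in vehicle and 383 to 518 after SGI-110. Its members also differed in direction: COL1A1 rose from a mean of 32.2 to 339.8 reads per kb (log2 fold change 3.38, adjusted p = 3.34e-05, edgeR), COL1A2 fell from 135 to 89.1 (-0.61, adjusted p = 0.0106, edgeR), LUM did not pass (0.91, adjusted p = 0.236, edgeR) and DCN, not tested, had 4 counts or fewer outside vehicle replicate 3. The part of these lists in the S100 results was not tested.

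Of the 10 S100 genes, 5 fell and 2 rose after SGI-110 at an adjusted p of 0.05 (edgeR quasi-likelihood test, Benjamini-Hochberg adjustment over 13322 genes). S100A2, S100A4, S100A6, S100A10 and S100A16 were lower, S100A3 and S100P were higher, and S100A11, S100A13 and S100A14 did not pass. Among all genes tested, 37.7% passed in either direction, 19.3% higher and 18.4% lower. The share of S100 genes that passed was 70%, with 2 of 10 higher, near the background, and 5 of 10 lower, above it. This background covers genes of all levels and was not matched to the members. The 5 genes that fell had vehicle means of 4902 to 88499.8 normalized counts. The median log2 fold change of the 10 genes was -0.41, against 0.02 over all genes, and their median absolute change was 1.12 against 0.38. Both medians include S100A14 and S100P, which passed the filter through their SGI-110 libraries. In bulk RNA, fewer cells with the transcript and less transcript per cell cannot be told apart. The values that follow are normalized counts, the counts scaled to a common library size, unless given per kb of counted exon.

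**Figure D1:**
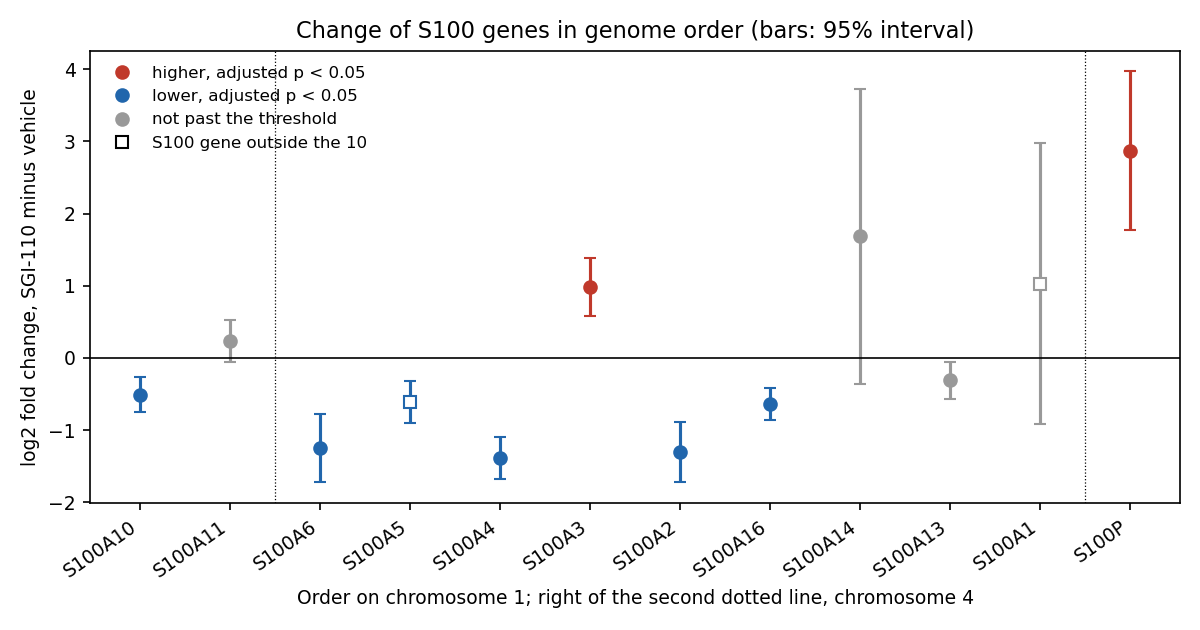
Log2 fold change (SGI-110 minus vehicle, edgeR) of the S100 genes tested other than S100Z, with 95% intervals (n = 3 per group). Genes stand in genome order along chromosome 1, and then S100P on chromosome 4. Dotted lines part S100A10 and S100A11 from the tight cluster and chromosome 1 from chromosome 4. S100A3, at 0.98, stands between S100A4 at -1.38 and S100A2 at -1.30, and S100P lies highest at 2.87.

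S100A4, which binds the heavy chain of non-muscle myosin and is also called metastasin, fell. It had 28218, 28200 and 22413 normalized counts in vehicle replicates 1, 2 and 3, and 8755, 10885 and 10711 after SGI-110. Each vehicle library lay above each SGI-110 library, and the lowest vehicle library was replicate 3. The mean went from 26277 ± 3346 to 10117 ± 1183 (SD, n = 3), 2.6-fold lower, with a log2 fold change of -1.38 (SE 0.129, 95% interval -1.67 to -1.09, adjusted p = 6.08e-05, edgeR).

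S100A3, its neighbour in the cluster, is a zinc- and calcium-binding protein best known from the hair cuticle, and it rose. It had 1194, 1339 and 942 normalized counts in vehicle and 1799, 2724 and 2351 after SGI-110. The lowest SGI-110 library was above the highest vehicle library, and SGI-110 replicate 2, the shallowest library, was the highest. The mean went from 1158 ± 200.5 to 2291 ± 465 (SD, n = 3), 1.98-fold higher, with a log2 fold change of 0.98 (SE 0.177, 95% interval 0.58 to 1.38, adjusted p = 0.00249, edgeR). The ratio of S100A3 to S100A4 in reads per kb was 0.0323, 0.0362 and 0.0321 in vehicle and 0.157, 0.191 and 0.168 after SGI-110. S100A4 thus remained the more abundant in all 6 libraries. The log2 ratio differed by 2.35, with an exact two-sided permutation p = 0.1, the smallest that 3 against 3 libraries can give, and 0.12 after Benjamini-Hochberg adjustment over the 6 ratios compared here.

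S100A6, or calcyclin, which binds the ubiquitin ligase adaptor CACYBP and annexins, had the highest level of the group and fell. Its normalized counts were 105248, 96264 and 63987 in vehicle and 28339, 44847 and 38354 after SGI-110. Vehicle replicate 3 was well under the other vehicle libraries, yet above each SGI-110 library. The mean fell 2.38-fold, from 88499.8 ± 21699 to 37180.1 ± 8316 (SD, n = 3), with a log2 fold change of -1.25 (SE 0.208, adjusted p = 0.00157, edgeR). The S100A6 to CACYBP ratio in reads per kb was 216, 195 and 139 in vehicle and 46.5, 85.5 and 70.5 after SGI-110. Its log2 value differed by -1.46 (exact permutation p = 0.1, adjusted p = 0.12), while CACYBP itself did not pass, with a log2 fold change of 0.22 (SE 0.102, adjusted p = 0.125, edgeR).

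S100A2, a largely nuclear member, also fell. Its normalized counts were 6099, 5099.9 and 3506 in vehicle against 1810.4, 2044 and 2127 after SGI-110. Vehicle replicate 3 was again the lowest of its group, and the groups did not overlap. The mean went from 4902 ± 1308 to 1994 ± 164 (SD, n = 3), 2.46-fold lower, with a log2 fold change of -1.30 (SE 0.185, adjusted p = 0.000671, edgeR). S100A2, S100A4 and S100A6 thus fell 2.38- to 2.6-fold, whereas S100A3, which lies between S100A4 and S100A2, rose.

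S100A10 and S100A11 are the annexin-binding members apart from the tight cluster. S100A10, or p11, forms a tetramer with annexin A2 that binds plasminogen at the cell surface, and it had 26063, 24368 and 26809 normalized counts in vehicle and 15854, 20074 and 18389 after SGI-110. The groups did not overlap, and the fall was smaller than that of S100A4, S100A6 or S100A2 in point estimate. The mean went from 25747 ± 1251 to 18106 ± 2124 (SD, n = 3), 1.42-fold lower, with a log2 fold change of -0.51 (SE 0.108, adjusted p = 0.00576, edgeR). ANXA2, its partner, rose from 21001, 21925 and 19608 to 27078, 24891 and 26302 normalized counts, by 0.32 on the log2 scale (SE 0.0896, adjusted p = 0.0201, edgeR). That call was lost without vehicle replicate 1, 2 or 3 or SGI-110 replicate 3 (0.28 to 0.36, adjusted p = 0.0536 to 0.0744, edgeR). The S100A10 to ANXA2 ratio in reads per kb was 1.95, 1.75 and 2.15 in vehicle and 0.921, 1.27 and 1.1 after SGI-110. Its log2 value differed by -0.84 (exact permutation p = 0.1, adjusted p = 0.12).

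S100A11, which binds annexin A1, had 14203, 12923 and 17871 normalized counts in vehicle and 17166, 16899 and 19002 after SGI-110. Vehicle replicate 3 lay above SGI-110 replicates 1 and 2, so that the groups overlapped. The log2 fold change was 0.24 (SE 0.13, 95% interval -0.06 to 0.53) and did not pass (adjusted p = 0.186, edgeR). Without vehicle replicate 3 it was 0.38 and passed (adjusted p = 0.0237, edgeR). Of 416 stretches of 50 bases in its GENCODE exons, 388 (93.3%) occurred once in the genome and the others up to 3 times. Some of its reads may thus be shared with copies, whereas the GENCODE exons of each other member held unique stretches only. Exact matches alone were sought, and counted bases outside these exons were not searched. S100A6, for example, was counted over 683 bp, against 434 bp of GENCODE exons. ANXA1 did not pass either, at a log2 fold change of -0.24 (SE 0.099, adjusted p = 0.086, edgeR), but did without SGI-110 replicate 2 (-0.31, adjusted p = 0.0462, edgeR) and with DESeq2 (adjusted p = 0.0378). The S100A11 to ANXA1 ratio overlapped between the groups, at 3.13, 2.66 and 3.97 against 4.51, 3.92 and 5.17. The ratio of S100A11 to S100A10 in reads per kb was 0.968, 0.942 and 1.18 in vehicle and 1.92, 1.5 and 1.84 after SGI-110, with a log2 difference of 0.76 (exact permutation p = 0.1, adjusted p = 0.12).

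S100A16, S100A14 and S100A13 follow each other at the far end of the cluster. S100A16, a widely expressed member, had 12407, 12946 and 12203 normalized counts in vehicle and 7313, 8196 and 8642 after SGI-110. Its libraries were close within each group, and it fell 1.56-fold, from 12519 ± 384 to 8051 ± 676 (SD, n = 3; log2 fold change -0.64, SE 0.0985, adjusted p = 0.00105, edgeR). S100A13, which takes part in the release of FGF1 and interleukin 1α from cells, had 2366, 2276 and 2267 normalized counts in vehicle and 1609.7, 2004 and 1976 after SGI-110. The groups did not overlap, but the log2 fold change of -0.31 (SE 0.113, 95% interval -0.57 to -0.05) missed the threshold (adjusted p = 0.0583, edgeR) and passed with DESeq2 (adjusted p = 0.0412). Of the exon bases in its GENCODE canonical transcript, 47.2% (225 of 477) are shared with a long non-coding RNA on the same strand. Reads of that RNA cannot be told apart from those of S100A13 there. S100A13 was counted over 781 bp, and the shared part of these counted bases was not computed.

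S100A14, a member found mainly in epithelia, was near the floor in vehicle. Its counts as deposited were 3, 1 and 34 in vehicle and 37, 22 and 28 after SGI-110. Normalized, they were 2.86, 1.06 and 26.1 against 29.9, 44.8 and 28.3, so that vehicle replicate 3 reached almost the lowest SGI-110 library. The log2 fold change of 1.69 (SE 0.906, 95% interval -0.36 to 3.73) did not pass (adjusted p = 0.174, edgeR), and without vehicle replicate 3 it was 3.95 (adjusted p = 0.000249, edgeR). Other genes close to silent in MDA-MB-231, such as ESR1 and PGR, also had their counts in vehicle replicate 3, and whether the S100A14 counts of that library have the same origin was not tested.

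S100P, first found in placenta and a ligand of ezrin and RAGE, had the largest fold rise among the members that passed. Its counts were 17, 19 and 6 in vehicle and 109, 56 and 93 after SGI-110. Normalized, these were 16.2, 20.1 and 4.61 against 88.2, 114 and 93.8, and here vehicle replicate 3 was the lowest library. The mean went from 13.6 ± 8.04 to 98.7 ± 13.5 (SD, n = 3), 7.24-fold higher, with a log2 fold change of 2.87 (SE 0.488, 95% interval 1.77 to 3.97, adjusted p = 0.00179, edgeR). It stayed between 2.42 and 3.26 when each library was left out in turn, and was 2.42 without vehicle replicate 3. Even so, S100P remained a minor transcript, at 193 reads per kb after SGI-110 against 54436 for S100A6. AGER, which encodes RAGE, had 34, 42 and 54 counts in vehicle and 82, 39 and 78 after SGI-110 and rose by 0.92 on the log2 scale (SE 0.296, adjusted p = 0.0365, edgeR). Without vehicle replicate 3 this was 0.95 (adjusted p = 0.0112, edgeR), and leaving out any one of the other 5 libraries ended the call (0.80 to 1.01, adjusted p = 0.0642 to 0.137). EZR did not pass (0.27, SE 0.103, adjusted p = 0.0696, edgeR). It did with DESeq2 (adjusted p = 0.0286) and when scaled by library totals only (0.3, adjusted p = 0.0308, edgeR).

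Counted without a test, 3 S100 genes had all SGI-110 libraries above all vehicle libraries (S100A3, S100A14 and S100P) and 6 had them all under (S100A2, S100A4, S100A6, S100A10, S100A13 and S100A16). Over all genes tested, 26.7% did not overlap in the higher direction and 24.9% in the lower. S100A14 and S100P passed the filter on low counts through their SGI-110 libraries.

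**Figure D2:**
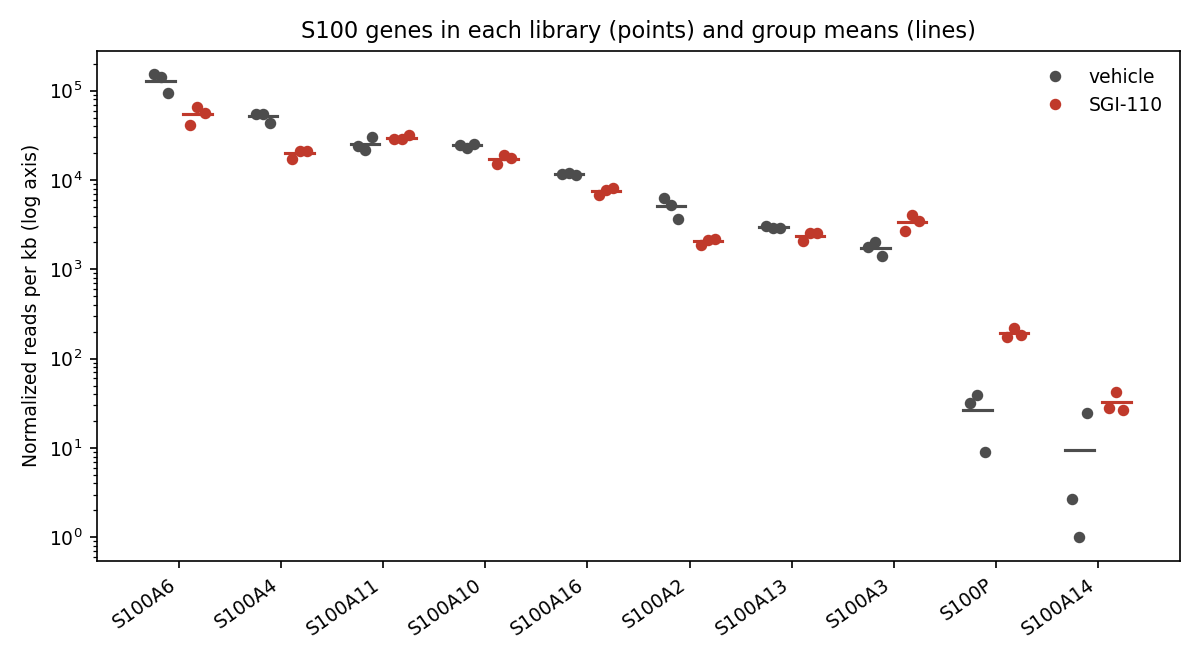
Level of each S100 gene in normalized reads per kb of counted exon (log axis), with 1 point per library, 3 vehicle and 3 SGI-110. The levels run from S100A14 near 1 read per kb in vehicle replicate 2 to S100A6 at a mean of 129575 in vehicle, and S100A14 is the gene whose vehicle libraries lie furthest apart.

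Compared per kb of counted exon, the genes spanned a wide range of levels. In vehicle the order of the mean levels was S100A6 at 129575 ± 31769.8 reads per kb (SD, n = 3), S100A4 at 51524 ± 6561, S100A11 at 25251 ± 4323 and S100A10 at 24404 ± 1186. S100A16 (11722 ± 359), S100A2 (5095 ± 1359.7), S100A13 (2949 ± 70.2) and S100A3 (1734 ± 300.1) followed, and S100P (26.7 ± 15.8) and S100A14 (9.45 ± 13.2) came last. The libraries of S100A11 and S100A10 overlapped, as did those of S100P and S100A14, and no other neighbours in this order did. After SGI-110 S100A11 was the second highest, and S100A4 had come down to 19837 reads per kb, where its libraries overlapped with those of S100A10. S100A3 had passed S100A13 and S100A2, and the last 2 overlapped with each other. With the GENCODE exon length in place of the counted length, S100A10 stood above S100A11 in vehicle and above S100A4 after SGI-110, and S100A13 above S100A3 after SGI-110.

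The level summed over the 10 genes was 280850.5, 263472 and 212546 reads per kb in vehicle and 116269, 151190.3 and 143140.4 after SGI-110. Each SGI-110 library was under each vehicle library, with means of 252289.7 ± 35499 and 136867 ± 18286 (SD, n = 3). The sum without S100A6 went from 122715 ± 3949 to 82430.1 ± 6668. The share of S100A6 in the sum was 54.9%, 53.5% and 44.1% in vehicle and 35.7%, 43.4% and 39.2% after SGI-110. S100A10 and S100A11 together made up 17.3%, 17.0% and 26.1% of the sum in vehicle and 37.8%, 31.4% and 34.5% after SGI-110. S100A4 held 19.7% to 21% and 14.1% to 14.8%. The 10 genes took 0.876% to 1.05% of all counts of a vehicle library and 0.478% to 0.603% of an SGI-110 library.

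**Figure D3:**
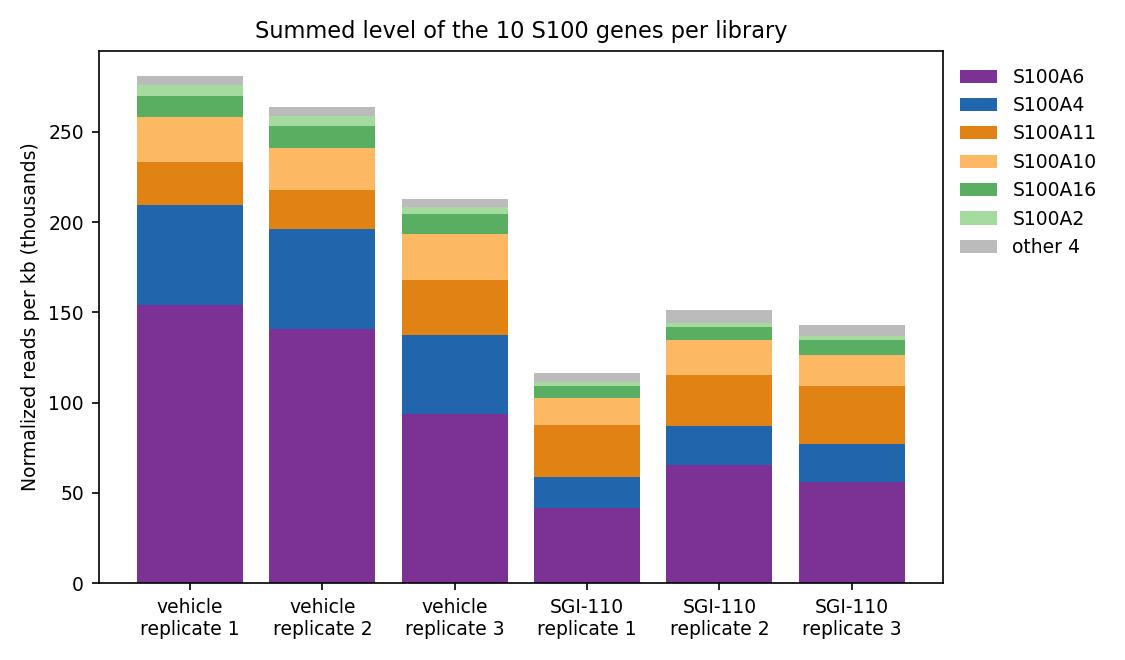
Summed level of the 10 S100 genes in each library, in normalized reads per kb, stacked by gene, for 3 vehicle and 3 SGI-110 libraries. The vehicle bars reach 212546 to 280850.5 and the SGI-110 bars 116269 to 151190.3, and S100A6 is the largest part of each bar.

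**Figure D4:**
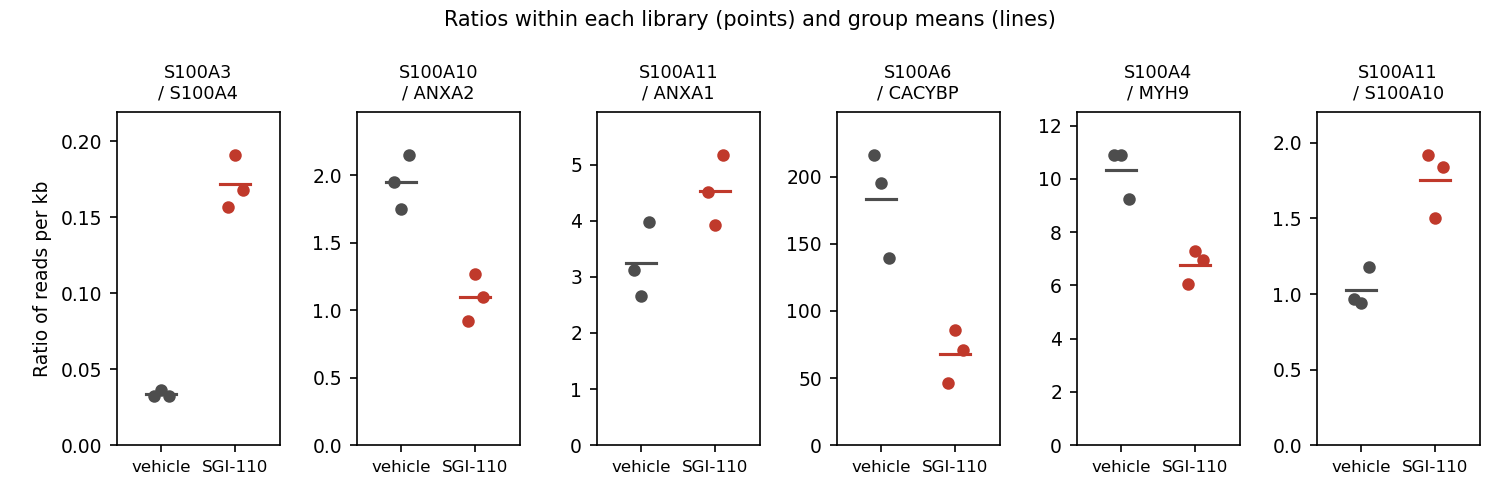
Ratios of reads per kb within each library for the 6 pairs compared, with 1 point per library, lines at the group means and each axis starting at 0. S100A3 to S100A4 is higher in each SGI-110 library, S100A10 to ANXA2, S100A6 to CACYBP and S100A4 to MYH9 are lower, and S100A11 to ANXA1 overlaps between the groups.

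Of the other S100 genes, 5 were in the table and 3 were tested. S100A5 lies between S100A6 and S100A4, 905 bp from the first and 1853 bp from the second. It fell, with 286, 281 and 342 counts in vehicle and 212, 88 and 193 after SGI-110 (log2 fold change -0.61, SE 0.13, adjusted p = 0.00597, edgeR). S100A1, on the opposite strand within the span of S100A13, had 3, 1 and 13 counts against 8, 6 and 12 and did not pass (log2 fold change 1.03, adjusted p = 0.377, edgeR). Without vehicle replicate 3 its log2 fold change was 2.21 and passed (adjusted p = 0.0261, edgeR). S100Z had 2, 3 and 21 counts against 19, 9 and 9 and did not pass (0.92, adjusted p = 0.419, edgeR), while without vehicle replicate 3 it was at 2.39 and passed (adjusted p = 0.00955, edgeR). S100B (61 counts) and S100A7A (17 counts) were seen in vehicle replicate 3 and at 2 counts or fewer in every other library, and they were not tested. The calprotectin subunits S100A8 and S100A9 and the remaining family members were not analysed here.

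Of 24 non-S100 genes within 250 kb of a member, 21 were tested, and 3 rose and 5 fell (38.1%, against 37.7% of all genes). THEM4, an acyl-CoA thioesterase near S100A10, rose by 1.17 on the log2 scale (SE 0.212, adjusted p = 0.00253, edgeR). INTS3, which encodes an Integrator subunit, fell (-0.69, adjusted p = 0.000648, edgeR). SLC27A3, a fatty acid transport protein, also fell (-1.10, adjusted p = 0.00222, edgeR), and ILF2 and TDRKH rose, by 0.51 and 0.46. TDRKH lost its call without vehicle replicate 1 or 2 or SGI-110 replicate 2 (0.39 to 0.45, adjusted p = 0.0714 to 0.104, edgeR). The median log2 fold change of the 21 genes was -0.13, against 0.02 over all genes.

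Of 33 known binding partners of S100 proteins, 28 were tested, and 9 rose, 7 fell and 12 did not pass (57.1% called, against 37.7% of all genes). Their median log2 fold change was 0.08, near that of all genes. Among those that rose, IL1A, the cytokine whose export involves S100A13, had 10, 15 and 22 counts in vehicle and 5509, 1787 and 3465 after SGI-110 (8.07 on the log2 scale, SE 0.211, adjusted p = 3.32e-08, edgeR). FGF1 and SYT1, which meet S100A13 in the FGF1 release complex, rose by 1.20 and 0.95 (adjusted p = 0.00408 and 0.0171, edgeR), and by 1.49 and 1.22 without vehicle replicate 3 (adjusted p = 0.000228 and 0.00161, edgeR). SYT1 lost its call without vehicle replicate 1 or 2 or SGI-110 replicate 1 or 3 (0.82 to 0.93, adjusted p = 0.0597 to 0.0663, edgeR). S100A13 itself thus had a log2 fold change of -0.31 that did not pass, while these 3 partners rose. PLAT, the tissue plasminogen activator bound by S100A10, rose by 1.14 (SE 0.136, adjusted p = 0.000239, edgeR), and PPFIBP1, the S100A4-binding liprin β, by 0.95 (SE 0.114, adjusted p = 0.000258, edgeR).

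Among the partners that fell, ASIC1, an ion channel linked to S100A10, had a log2 fold change of -2.45 (SE 0.201, adjusted p = 2.76e-05, edgeR). MYH9 and MYH10, heavy chains of non-muscle myosin bound by S100A4, had log2 fold changes of -0.77 and -0.72 (adjusted p = 0.000154 and 0.000474, edgeR). The S100A4 to MYH9 ratio in reads per kb was 10.9, 10.9 and 9.25 in vehicle and 6.07, 7.28 and 6.96 after SGI-110, so that S100A4 was lower also relative to MYH9 (log2 difference -0.61, exact permutation p = 0.1, adjusted p = 0.12). AHNAK, a scaffold bound by S100A10 and annexin A2, had a log2 fold change of -0.88 (SE 0.224, adjusted p = 0.0138, edgeR) and was counted over 1092 bp of exon, a short transcript of this long gene. Its call was lost without vehicle replicate 1 (-0.85, adjusted p = 0.0514, edgeR) or SGI-110 replicate 3 (-0.75, adjusted p = 0.0659, edgeR).

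**Figure D5:**
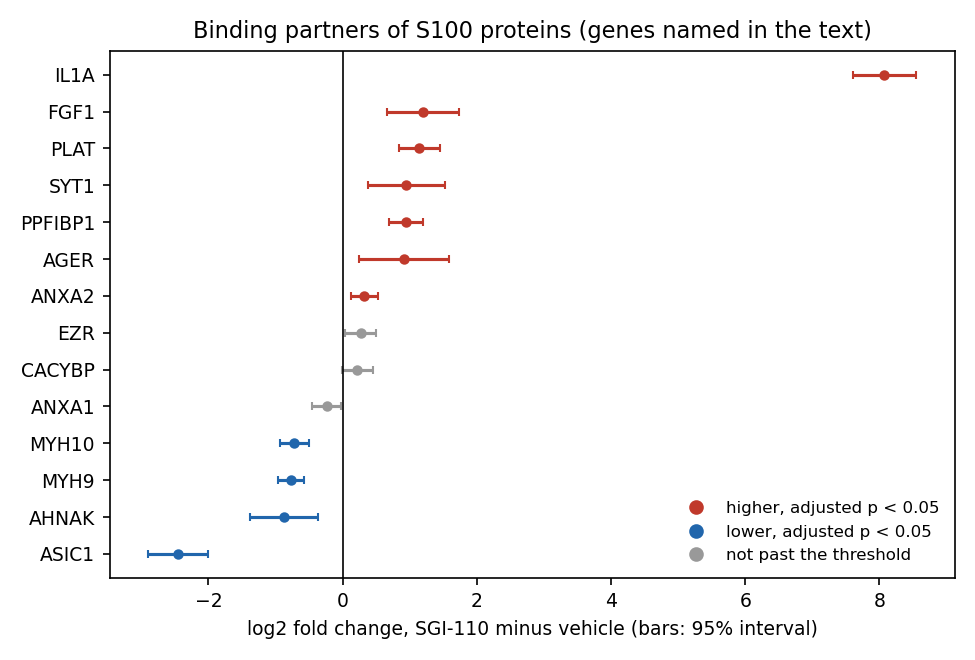
Log2 fold change (SGI-110 minus vehicle, edgeR) of the 14 S100 binding partners named in the text, with 95% intervals (n = 3 per group). Of these, IL1A lies far above the rest at 8.07, ASIC1 is the lowest at -2.45, and ANXA1, CACYBP and EZR did not pass the test.

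HTATIP2 (Pearson r 0.996) and TRAPPC4 (0.995) were among the genes whose log2 levels over the 6 libraries were most like those of S100P, with log2 fold changes of 0.76 and 0.66. The libraries fall in 2 groups, and 409 of 13321 other genes had an r over 0.95 with S100P, and all points share these 6 libraries.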

How the data were processed

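The authors aligned reads of MDA-MB-231 libraries to hg19 with STAR (2.3.1z in the submitters' processing notes) and deposited raw counts of exon reads, made with iRNA-seq for each RefSeq transcript. The TruSeq kit was used, and the handling of strand and of reads with several matches is not given in the sources used here. The same table holds log2 values (regularized log and fold change), a mean signal, a score and p-values that the authors computed with DESeq2, and none of these was used. Counts were scaled with TMM, filtered with filterByExpr (minimum count 10; 13322 of 17100 kept) and tested with the quasi-likelihood test of edgeR 4.0.16 in R 4.3.3, with Benjamini-Hochberg adjustment and a threshold of 0.05. SEs came from the F statistic, and intervals are 95%. Normalized counts refer to the mean library total of 17911210, and reads per kb divide them by the counted exon length. The floor was 3 counts in a library. Reads are not independent molecules, so the floor covers counting error only. Ratios were compared with exact two-sided permutation tests. Promoters (250 bases before to 50 after the start) were read from GRCh37, and exons from GENCODE 44 lifted to that build. Exons of the members were those of the canonical transcript. Alternatives were DESeq2 1.42.0, its size factors, library totals, no filter, 10 counts in every library, the replicate number as a block and each library left out; the GENCODE exon length was added after the data were seen. The scripts were tested on simulated data. Named are all members, the S100 relatives in the table, the 5 partners with the largest rise and fall among those past the threshold, 6 partners whatever their values (ANXA1, ANXA2, MYH9, CACYBP, EZR, AGER), the 3 neighbours with the largest rise and fall past the threshold, and the 3 genes most correlated with the member that changed most. A few genes that this rule would name are not reported here. The members, the lists and the tests were chosen with earlier results of these data known.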

Additional observations from a re-analysis of the deposited data

How the results depend on the processing

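The 7 S100 genes past the threshold kept their direction and stayed past it in each fit that tested them. Over the settings 6 to 9 members passed. With library by library left out, 7 to 9 members, 11 to 17 partners, 6 to 10 neighbours and 3335 to 5577 of all genes passed, the last against 5022 with all libraries and lowest without SGI-110 replicate 3. Without vehicle replicate 3, 9 members passed, S100A11 (0.38) and S100A14 (3.95) in addition, and DESeq2 added S100A13. S100A2, S100A3, S100A4 and S100A6 had their lowest vehicle level in replicate 3. Without that library their log2 fold changes were -1.49, 0.85, -1.48 and -1.44. With at least 10 counts in every library S100A14 and S100P were not tested. The summed level differed by -0.77 to -1 on the log2 scale, against -0.88. With the GENCODE exon length the vehicle levels of S100A6 (203917), S100A10 (38370.5), S100A13 (4828) and S100A16 (10681 reads per kb) moved by more than 1 SD. Without a filter the median log2 fold change of all genes was -0.11 against 0.02.

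The replicate numbers are shared between the groups, but same-numbered libraries did not deviate together (correlations of -0.0499, 0.0492 and -0.0366). A block for the replicate number gave 7 members (2 higher, 5 lower) and 4654 of all genes, with 14 partners and 7 neighbours. Under it ANXA2 (0.32), AGER (0.93) and TDRKH (0.46) kept their direction and no longer passed. Counts limit S100A14 and S100P, whose vehicle libraries had 1 to 34 and 6 to 19 reads.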
